A study of Mus musculus with 24 samples.

Results

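The 9 genes Neurod6, Neurod2, Slc17a7, Camk2a, Tbr1, Fezf2, Bcl11b, Cux2 and Rorb mark excitatory neurons of the cerebral cortex and were followed across 24 mouse tumours. Neurod6, Neurod2, Slc17a7 and Camk2a mark these neurons in general, Tbr1, Fezf2 and Bcl11b the deep layers, and Cux2 and Rorb the upper layers. They were found by gene symbol among the probe sets that carry a single symbol, and all 9 of 9 were measured and tested, out of 17097 genes measured and 13218 tested. Each gene was read from the probe set with the highest mean over the 24 arrays, and the 9 genes had 21 probe sets in all. The tumours were excised from the mouse cortex, and total RNA of each was hybridised to 1 single-colour Affymetrix array. Each tumour grew from cells that expressed a named class gene, which was RAB3A (6 tumours), BC74C (9) or ZNF668 (9). A second label names 4 tumours HGG, 5 TUMOR, 4 UNKNOWN and 11 ependymoma. The labels spell out neither HGG nor BC74C, no normal cortex was analysed here, and strain, age and the way the genes were introduced are not given in the sources used here. RAB3A tumours comprised 0 HGG, 2 TUMOR, 2 UNKNOWN and 2 ependymoma. BC74C tumours comprised 2 HGG, 0 TUMOR, 1 UNKNOWN and 6 ependymoma. ZNF668 tumours comprised 2 HGG, 3 TUMOR, 1 UNKNOWN and 3 ependymoma. Titles began with elw in 18 tumours (4 RAB3A, 8 BC74C, 6 ZNF668) and with mmr in 6 (2 RAB3A, 1 BC74C, 3 ZNF668), and whether these prefixes mark a batch is not given in the sources used here. The deposited values are log2 expression values, on which a difference of 1 is a 2-fold difference. The median value of an array lay between 4.98 and 5.19. Nothing in the labels ties tumours to separate animals, so p-values measure only the spread between these samples.

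Excitatory neurons of the cortex use glutamate as transmitter and arise from progenitors of the dorsal forebrain. Deep layer neurons are born first and project mainly below the cortex, upper layer neurons are born later and connect cortical areas with each other, and transcription factors such as Tbr1, Fezf2, Bcl11b and Cux2 set these fates apart. In a bulk tumour sample such genes read out neurons that lie in the excised tissue as well as any tumour cell that transcribes them. Fewer cells of a type and less RNA per cell cannot be told apart in such samples.

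Promoter windows are shown for 3 members that were high in much the same tumours (Neurod6, Neurod2, Tbr1), for the upper layer gene Cux2 and for Rorb, which varied least. They were searched for E-boxes because Neurod6 and Neurod2 belong to the basic helix-loop-helix proteins, which bind such letters. Each window runs from 250 bases before to 50 bases after a RefSeq transcription start (assembly GRCm38.p6), 5′ to 3′ on the gene's strand. Capitals mark CAGATG or its reverse complement CATCTG, the E-box preferred by NeuroD proteins. The windows lie at chr6:55681214-55681513 (- strand, Neurod6), chr11:98329596-98329895 (- strand, Neurod2), chr2:61804203-61804502 (+ strand, Tbr1), chr5:122047776-122048075 (- strand, the downstream of 2 Cux2 windows) and chr19:19111147-19111446 (- strand, the upstream of 2 Rorb windows).
Neurod6: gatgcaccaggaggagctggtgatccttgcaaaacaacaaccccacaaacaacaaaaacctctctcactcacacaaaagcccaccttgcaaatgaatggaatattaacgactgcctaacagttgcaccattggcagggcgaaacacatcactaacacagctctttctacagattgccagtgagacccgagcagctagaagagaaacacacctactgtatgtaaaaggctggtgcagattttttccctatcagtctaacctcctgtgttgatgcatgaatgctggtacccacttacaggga
Neurod2: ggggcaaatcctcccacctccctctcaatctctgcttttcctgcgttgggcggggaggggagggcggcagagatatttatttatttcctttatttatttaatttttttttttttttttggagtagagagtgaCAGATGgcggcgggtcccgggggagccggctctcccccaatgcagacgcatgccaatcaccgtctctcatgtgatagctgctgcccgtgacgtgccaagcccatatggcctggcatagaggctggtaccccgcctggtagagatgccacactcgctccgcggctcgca
Tbr1: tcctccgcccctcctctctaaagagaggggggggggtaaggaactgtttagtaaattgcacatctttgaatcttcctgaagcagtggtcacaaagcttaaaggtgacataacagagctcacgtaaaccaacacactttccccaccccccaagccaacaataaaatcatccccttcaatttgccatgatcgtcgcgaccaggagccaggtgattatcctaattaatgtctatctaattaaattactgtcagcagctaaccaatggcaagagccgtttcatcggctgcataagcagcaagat
Cux2: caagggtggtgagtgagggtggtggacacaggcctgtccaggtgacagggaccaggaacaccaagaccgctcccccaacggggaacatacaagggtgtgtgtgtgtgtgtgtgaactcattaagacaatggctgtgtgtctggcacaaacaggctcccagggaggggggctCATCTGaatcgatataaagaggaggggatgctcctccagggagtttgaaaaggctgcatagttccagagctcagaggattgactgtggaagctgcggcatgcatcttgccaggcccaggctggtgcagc
Rorb: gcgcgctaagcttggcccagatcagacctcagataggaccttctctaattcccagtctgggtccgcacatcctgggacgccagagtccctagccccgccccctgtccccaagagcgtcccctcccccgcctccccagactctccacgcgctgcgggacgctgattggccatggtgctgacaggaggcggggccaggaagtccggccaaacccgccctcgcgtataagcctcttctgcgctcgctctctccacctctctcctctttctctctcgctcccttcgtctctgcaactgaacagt
Of the members, 8 matched a RefSeq window, with 10 windows in all. CAGATG, searched on both strands, was in 2 of the 10, once in Neurod2 with its first base at position -118 and once in Cux2 at position -79, counted from the transcription start. It was in 17.1% of all 32544 windows of this length. The wider E-box CANNTG, which includes CAGATG, was in 8 of the 10 member windows and in 72.3% of all windows. Neurod6 and Tbr1, which shared most of their highest tumours with Neurod2, had no CAGATG in these windows. A match is a description of the letters only.

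Of the 9 members, 8 varied widely from tumour to tumour. The SD over the 24 tumours was 1.95 for Neurod6, 1.94 for Camk2a, 1.84 for Tbr1, 1.66 for Fezf2, 1.56 for Slc17a7, 1.52 for Bcl11b, 1.43 for Cux2 and 1.28 for Neurod2. The median gene had an SD of 0.44. Rorb, a nuclear receptor of the cortical layer that receives thalamic input, had an SD of 0.60, more than 67.8% of all tested genes, whereas the share was 95.6% or higher for each of the other 8. Fezf2 lay below a log2 value of 3.76, the limit used for low expression, in 9 tumours, Neurod6 in 8, Slc17a7 in 7 and Tbr1 in 4. These markers of cortex were thus at the low end of the array in part of the tumours, although every sample is labelled cortex. The other 5 members lay above that limit in every tumour.

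The tumours fell into a set with and a set without clear Tbr1 signal. Tbr1, a T-box transcription factor of deep layer neurons, lay between 6.80 and 8.82 in 9 tumours and between 3.37 and 4.92 in the other 15, with no tumour in the gap of 1.88 between them, which was 34.5% of the whole range. The 9 tumours were RAB3A replicates 1, 2, 4 and 5, BC74C replicates 4, 5, 7 and 8, and ZNF668 replicate 5. They made up 4 of 6 RAB3A tumours, 4 of 9 BC74C tumours and 1 of 9 ZNF668 tumours. By the second label they were 1 of 4 HGG, 1 of 5 TUMOR, 3 of 4 UNKNOWN and 4 of 11 ependymoma tumours. High Tbr1 therefore occurred under every class gene and every tumour label.

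These tumours were also the 9 highest for Neurod2, Slc17a7 and Camk2a. Neurod2 is a basic helix-loop-helix factor of excitatory neurons, Slc17a7 encodes the vesicular glutamate transporter VGLUT1 and Camk2a a calcium-dependent kinase of excitatory synapses. Camk2a had a gap of its own between 9.27 and 10.49, with exactly those tumours above it, and Neurod2 a smaller one of 0.51. Away from the ends of the range, the largest gaps of Neurod6, Slc17a7 and Fezf2 had 10, 7 and 8 tumours above them. Neurod6, a basic helix-loop-helix factor of postmitotic cortical neurons, had 8 of the 9 tumours with high Tbr1 among its 9 highest. So did Fezf2, a zinc finger factor of neurons that project below the cortex. Bcl11b and Cux2 each had 7 of the 9, and Rorb had 2. The heat map of members and marker lists shows these tumours side by side.

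**Figure D1:**
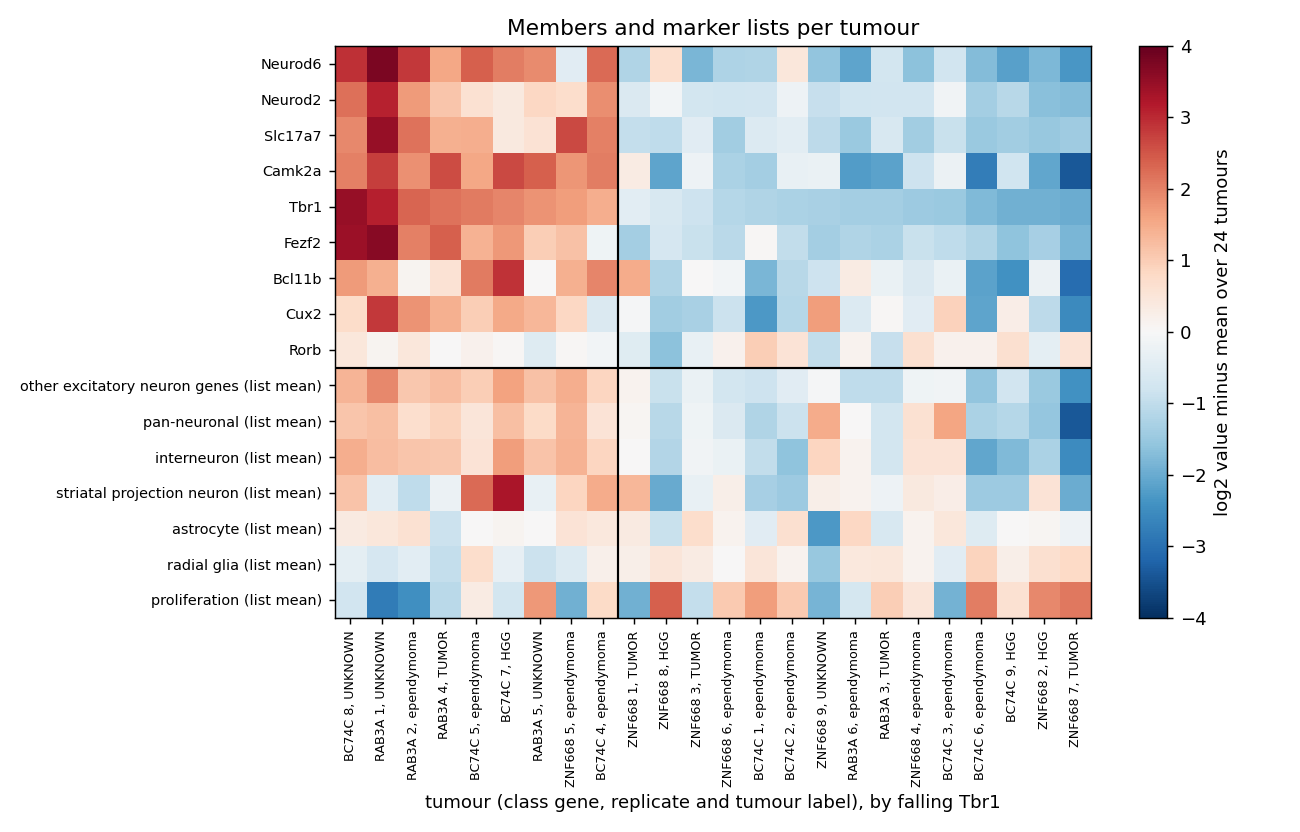
Log2 value minus its mean over the 24 tumours (colour) for the 9 members (upper rows) and the means of 7 marker lists (lower rows), with 1 column per tumour in falling order of Tbr1. The vertical line stands in the Tbr1 gap: the 9 tumours left of it are the 9 highest for Neurod2, Slc17a7, Camk2a and Tbr1, while Rorb has 2 of them among its 9 highest.

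ZNF668 replicate 5 was the only ZNF668 tumour above the gap, and its members did not go together. Its Slc17a7 value of 7.65 was the second highest of the 24 tumours, behind 8.49 in RAB3A replicate 1. Its Neurod6 value was 4.68, below the 5.80 of ZNF668 replicate 8 and the 5.57 of BC74C replicate 2, both of which lay below the Tbr1 gap. Its Tbr1 was 7.01, its Camk2a 10.70 and its Fezf2 5.93.

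Because Tbr1 left a gap, correlations were taken within the 15 tumours below it and within the 9 above it, with no pooled value. They cover the 6 members with 8 or 9 of those 9 tumours among their own 9 highest (Neurod6, Neurod2, Slc17a7, Camk2a, Tbr1 and Fezf2). Among their 15 pairs, Pearson's r lay between 0.19 and 0.78 in the 15 tumours (median 0.51) and between -0.11 and 0.93 in the 9 (median 0.38). Cutting the tumours by Tbr1 narrows the range, so a low r within a set does not show that a relation is absent. In the 15 tumours the SD was 0.40 for Slc17a7, 0.44 for Fezf2, 0.46 for Tbr1 and 0.49 for Neurod2, against 0.89 for Neurod6 and 1.1 for Camk2a. The medians of Neurod6 (3.55) and Fezf2 (3.57) there lay below the limit of 3.76 for low expression. After adjustment over all 36 member pairs, 1 pair passed in each set. In the 15 tumours it was Neurod6 and Neurod2 (r = 0.78, permutation p = 0.00074, adjusted 0.0266). Spearman's rho was 0.79 for that pair (permutation p = 0.00079, 0.0284 after adjustment), and r was 0.69 once the 2 tumours with the most extreme Neurod6 values were left out. In the 9 tumours it was Tbr1 and Fezf2 (r = 0.93, exact permutation p = 0.000187, adjusted 0.00675). Here rho was 0.93 (exact permutation p = 0.00075, 0.027 after adjustment), and r was 0.89 with the 2 most extreme tumours left out. Within the tumours with elw titles these r were 0.71 (10 tumours) and 0.93 (8 tumours). The remaining tumours in each set, 5 and 1 with mmr titles, were too few for a value of their own.

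The first comparison was between class genes. RAB3A tumours had the highest mean for 8 of the 9 members and ZNF668 tumours the lowest for all 9, yet no member passed the test in any of the 3 comparisons. Neurod6 had a lowest, median and highest value of 3.01, 6.83 and 8.87 in RAB3A, 2.95, 5.57 and 8.03 in BC74C, and 2.78, 3.55 and 5.80 in ZNF668 tumours. The 3 groups overlapped in their lower part, and ZNF668 tumours did not reach the upper values of the other two. Its mean was 6.31 ± 2.21 over the 6 RAB3A tumours, 5.59 ± 1.98 over the 9 BC74C tumours and 3.85 ± 0.90 over the 9 ZNF668 tumours (± SD here and below). Camk2a showed a step within a group most plainly: 4 RAB3A tumours lay between 10.75 and 11.71 and the remaining RAB3A tumours at 6.79 and 6.71. In ZNF668 tumours Camk2a had a lowest, median and highest value of 5.56, 8.11 and 10.70. The plot of member levels by class gene shows the same division of RAB3A tumours for Tbr1 and Fezf2.

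**Figure D2:**
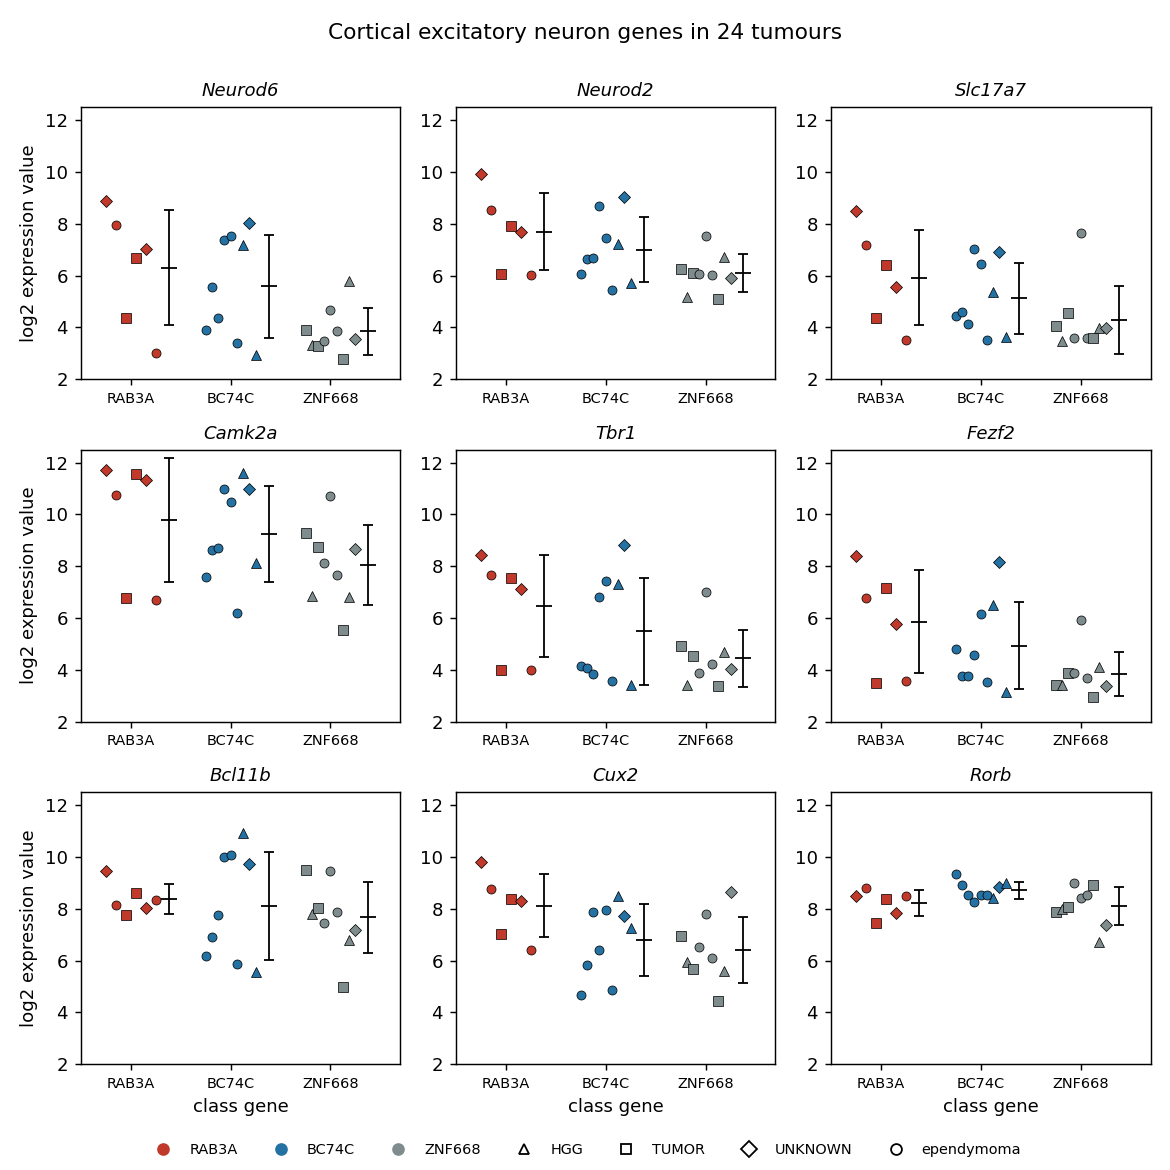
Log2 expression value (vertical axis) of each member in each tumour by class gene (horizontal axis), with the shape of a point giving the tumour label and the black bar the mean ± SD (n = 6 RAB3A, 9 BC74C, 9 ZNF668). In the Tbr1 panel 4 RAB3A, 4 BC74C and 1 ZNF668 tumours stand above the gap, while Rorb stays between 6.73 and 9.36 in all tumours.

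Between RAB3A and ZNF668 tumours the log2 difference of the 9 members had a median of 1.71, and all 9 were positive, between 0.14 and 2.46. In this limma fit 10 of 13218 genes passed (0.0757%) and 0 of the 9 members, at an adjusted p between 0.479 and 0.836. At an unadjusted p under 0.05 there were 6 of the 9 members and 1217 of all genes. Among the general markers, Neurod2 differed by 1.60 (SE 0.58, limma adjusted p = 0.479) and Slc17a7 by 1.65 (SE 0.74, adjusted p = 0.534), while Camk2a differed by 1.76 (SE 0.93, adjusted p = 0.545). Of the deep layer genes, Fezf2 differed by 2.01 (SE 0.75, limma adjusted p = 0.485) and Bcl11b by 0.71 (SE 0.78, adjusted p = 0.717). Of the upper layer genes, Cux2, a homeobox factor, differed by 1.71 (SE 0.65, limma adjusted p = 0.50) and Rorb by 0.14 (SE 0.28, adjusted p = 0.836). When the title prefix was a block, the 9 differences lay between 0.14 and 2.46, and within the elw titles between -0.04 (Rorb) and 3.21 (Neurod6). The mmr titles hold 2 RAB3A and 3 ZNF668 tumours and were not fitted alone. Within the tumours labelled ependymoma, 2 RAB3A and 3 ZNF668, 7 of the 9 differences were positive and the median was 0.68.

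Between BC74C and ZNF668 tumours the members' median difference was smaller, at 0.91. All 9 differences were positive, with a smallest of 0.38 for Cux2 and a largest of 1.74 for Neurod6. Of the BC74C tumours 6 of 9 and of the ZNF668 tumours 3 of 9 were labelled ependymoma, and within that label 5 of the 9 differences were negative, with a median of -0.05. In limma 40 of 13218 genes passed (0.303%) and 0 of the 9 members, at an adjusted p between 0.560 and 0.978. At an unadjusted p under 0.05 there were 2 members, Neurod6 and Rorb, and 909 of all genes. Rorb had a lowest, median and highest value of 8.27, 8.55 and 9.36 in BC74C and 6.73, 8.06 and 9.0 in ZNF668 tumours. The groups overlapped, with 5 of the 9 ZNF668 tumours below the lowest BC74C tumour. The difference of Rorb was 0.61 (SE 0.25, limma adjusted p = 0.560). Within the elw titles the 9 differences lay between 0.07 (Bcl11b) and 2.16 (Neurod6), and between 0.06 and 1.49 when the prefix was a block. The 3 comparisons share tumours, so their values for a member stand side by side and are not independent.

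RAB3A and BC74C tumours were not told apart by any member. In limma 0 of 13218 genes passed (0%), with 1085 at an unadjusted p under 0.05 and 0 of the 9 members among them. The differences, RAB3A minus BC74C, lay between -0.47 for Rorb and 1.33 for Cux2, at an adjusted p between 0.605 and 0.923. Cux2 had a lowest, median and highest value of 6.42, 8.35 and 9.80 in RAB3A and 4.69, 7.24 and 8.51 in BC74C tumours. Its groups overlapped over most of their range. The mean of Bcl11b was 8.38 ± 0.59 over RAB3A tumours and 8.11 ± 2.08 over BC74C tumours, close in mean and unlike in spread. Within the elw titles the differences lay between -0.40 and 1.77.

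Further genes of excitatory neurons mostly differed in the same direction, and none of them passed. Of 13 tested further genes of excitatory neurons (such as Nrgn, Itpka and Sv2b), 12 were higher and 1 lower in RAB3A than in ZNF668 tumours, with a median difference of 1.15 against -0.04 over all tested genes, and 0 passed. The largest moderated t belonged to Itpka, a kinase of inositol phosphates in dendritic spines, with a difference of 1.75 (SE 0.72, limma adjusted p = 0.525), and the smallest to Nptx1, a secreted synaptic pentraxin, with -0.35 (SE 0.36, adjusted p = 0.702). Of 16 further upper layer genes 10 were higher and 6 lower (median 0.21), and of 16 further deep layer genes 10 were higher and 6 lower (median 0.08), with 0 passing in either list. By moderated t, the ends of the upper layer list were Lmo4, a LIM-domain regulator (log2 difference 0.62, limma adjusted p = 0.479), and Pou3f3, a POU factor (-0.45, adjusted p = 0.545), and those of the deep layer list Cplx3, a complexin (0.96, adjusted p = 0.551), and Syt6, a synaptotagmin (-0.34, adjusted p = 0.544). These longer layer lists, many of whose genes are also used outside the cortex, thus stood nearer to the median of all genes than the members did. In BC74C minus ZNF668, 11 of the 13 excitatory genes were higher (median 0.59), 8 of the 16 upper layer genes (median -0.05) and 11 of the 16 deep layer genes (median 0.22), again with 0 passing in each.

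Lists of other cells did not all point the same way. In RAB3A minus ZNF668, 9 of 11 genes of all neurons (median 1.12) and 10 of 10 interneuron genes (median 0.70) were higher, with 0 passing. The largest moderated t in each list belonged to Rbfox3, which encodes the neuronal marker NeuN, and to the interneuron peptide Vip. Their log2 differences were 1.55 and 2.50 (limma adjusted p = 0.557 and 0.527). The striatal list was higher for 1 and lower for 6 of its 7 genes (median -0.43), the radial glia list lower for 8 of 8 (median -0.34) and the proliferation list lower for 11 of 11 (median -0.85), again with 0 passing. The mean of the pan-neuronal list lay between 8.45 and 10.39 in RAB3A, 7.91 and 10.76 in BC74C, and 5.80 and 10.68 in ZNF668 tumours. That of the interneuron list lay between 6.58 and 8.56 in RAB3A, 5.24 and 8.99 in BC74C, and 4.81 and 8.70 in ZNF668 tumours. Rbfox3 was lowest at 4.47 and Snap25, a protein of synaptic vesicle fusion, at 7.50, both in ZNF668 replicate 7, and the array's log2 scale has no 0. With the pan-neuronal mean as a covariate, 8 of the 9 members were still higher in RAB3A than in ZNF668 tumours, with a median of 1.11, Neurod6 at 1.90 and Bcl11b at -0.04, and 0 passed as without it. The part of the other lists was not tested.

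The second comparison was between tumour labels, with the class gene held in the model. No member passed in limma in any of these comparisons, which share the ependymoma tumours. In HGG minus ependymoma, 0 of 13218 genes passed (0%), with 229 at an unadjusted p under 0.05. The members' differences lay between -0.84 (Slc17a7) and 0.42 (Cux2). Cux2 was 8.51 and 7.24 in the BC74C tumours labelled HGG and 5.94 and 5.59 in the ZNF668 tumours labelled HGG, against a lowest, median and highest value of 4.69, 6.42 and 8.77 in ependymoma. The 4 HGG tumours thus lay within the ependymoma range, above its median with BC74C and below it with ZNF668. Rorb had the smallest moderated t, with a difference of -0.57 (SE 0.30, limma adjusted p = 1.0). While 7 of the 9 differences were negative here, 6 were positive within the elw titles, where they lay between -0.50 (Slc17a7) and 1.44 (Bcl11b), and 6 with the prefix as a block. The direction for the label HGG thus differed with how the title prefix was treated. It also rested on single tumours, with 0 of the 9 positive without BC74C replicate 7 and 6 positive without ZNF668 replicate 5 or without BC74C replicate 9.

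In TUMOR minus ependymoma, 0 of 13218 genes passed (0%), with 251 at an unadjusted p under 0.05, and all 9 members had differences between -0.41 and -0.03. Camk2a was 11.54 and 6.79 in the RAB3A tumours and 9.27, 8.74 and 5.56 in the ZNF668 tumours labelled TUMOR. Its ependymoma values had a lowest, median and highest of 6.18, 8.64 and 10.98, so TUMOR values lay beyond both ends of that range. The difference was -0.03 (SE 1.05, limma adjusted p = 1.0), and that of Rorb -0.29 (SE 0.31, adjusted p = 1.0). Within the elw titles 8 of the 9 differences were negative, and they lay between -0.90 (Slc17a7) and 0.65 (Bcl11b). Without ZNF668 replicate 5, 5 of the 9 were positive (median 0.20), and without RAB3A replicate 2 or without ZNF668 replicate 7 there were 4, so the common sign rested on single tumours.

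In UNKNOWN minus ependymoma, 0 of 13218 genes passed (0%), although 2159 had an unadjusted p under 0.05, and 8 of 9 members were higher and Rorb lower. Tbr1 was 8.44, 7.13, 8.82 and 4.04 in the UNKNOWN tumours RAB3A replicates 1 and 5, BC74C replicate 8 and ZNF668 replicate 9. In ependymoma its lowest, median and highest values were 3.58, 4.14 and 7.68. The first 3 of these tumours stood in the upper set and the ZNF668 tumour did not. Cux2 was 9.80, 8.31, 7.72 and 8.64 in the same 4 tumours, all above the ependymoma median of 6.42. It had the largest moderated t, with a difference of 1.57 (SE 0.70, limma adjusted p = 0.283). Camk2a differed by 1.83 (SE 1.07, adjusted p = 0.369), Tbr1 by 1.75 (SE 0.98, adjusted p = 0.354), Neurod6 by 1.64 (SE 0.97, adjusted p = 0.372), Fezf2 by 1.62 (SE 0.84, adjusted p = 0.330) and Rorb by -0.42 (SE 0.32, adjusted p = 0.473). Within the elw titles the differences lay between -0.03 (Rorb) and 2.91 (Fezf2). With the mean of the Y-linked genes Eif2s3y, Kdm5d and Uty as a covariate, 241 genes had an unadjusted p under 0.05 in place of 2159. In that fit the members' median was 0.89 in place of 1.57, with 8 of 9 higher, and the cause of the change was not tested. Without BC74C replicate 8 the members' median was 0.68 in place of 1.57, with Tbr1 at 0.84 and Fezf2 at 0.68, and without ZNF668 replicate 9 Tbr1 was 2.62 and Fezf2 2.46, so the size rested on single tumours. With array weights, which give less weight to tumours that are poorly fitted, Fezf2 (2.75, limma adjusted p = 0.0400) and Neurod2 (1.96, adjusted p = 0.0499) passed. They were among 398 of 13218 genes that passed in that fit. The same contrast had 12 of 13 further excitatory genes higher (median 1.07) and 10 of 11 pan-neuronal genes higher (median 1.22). In it 8 of 8 radial glia genes (median -0.93), 11 of 11 proliferation genes (-0.66) and 6 of 7 oligodendrocyte progenitor genes (-0.79) were lower and 6 of 7 myelin genes (1.27) higher, with 0 passing in each of these lists. The part of these lists was not tested. The part of neuronal content in the members' differences was not tested beyond the fit with the pan-neuronal mean. In that fit the members' median was 0.72 in place of 1.57, with 7 of 9 higher, and 0 members passed, as without it.

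General neuronal content and the cortical members did not coincide in every tumour. The mean of the pan-neuronal list (Snap25, Syt1, Rbfox3 and others, 11 genes tested) was at least 9.67 in all 9 tumours with high Tbr1. It reached that level in 12 tumours, and the 3 others were BC74C replicate 3, ZNF668 replicate 9 and ZNF668 replicate 4, at 10.76, 10.68 and 9.78. The tumours at 10.76 and 10.68 had the highest list means of all 24 tumours. In the 3 tumours, in that order, Tbr1 was 3.86, 4.04 and 3.90, Slc17a7 4.12, 3.96 and 3.61, and Neurod6 4.35, 3.55 and 3.47. All 3 tumours thus lay below the gap for Tbr1 and had no clear Slc17a7 signal, while other members were not low in each of them: Cux2 ranked 3 of 24 in ZNF668 replicate 9 and 8 in BC74C replicate 3, and Rorb ranked 3 in ZNF668 replicate 4.

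Slc17a6, which encodes the vesicular glutamate transporter VGLUT2 of thalamic, hypothalamic and brainstem neurons, was high in those 3 tumours. This gene was also counted above among the further genes of excitatory neurons. Its values were 11.05 in BC74C replicate 3, 11.36 in ZNF668 replicate 9 and 10.19 in ZNF668 replicate 4, which were 3 of the 4 highest. ZNF668 replicate 5, where Slc17a7 ranked 2 of 24 and Neurod6 ranked 11, had 10.52. The 9 tumours with high Tbr1 had Slc17a6 values between 6.38 and 10.52 with a median of 7.44. The other 15 tumours lay between 3.18 and 11.36 with a median of 7.41, so the medians were alike. RAB3A replicates 4 and 5, both with high Tbr1, had Slc17a6 at 9.70 and 9.97. The 3 tumours and the set with high Tbr1 were picked after the values were seen and are given as a description. Every sample is labelled cortex, and the sources used here give no finer location for the tissue around each tumour.

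**Figure D3:**
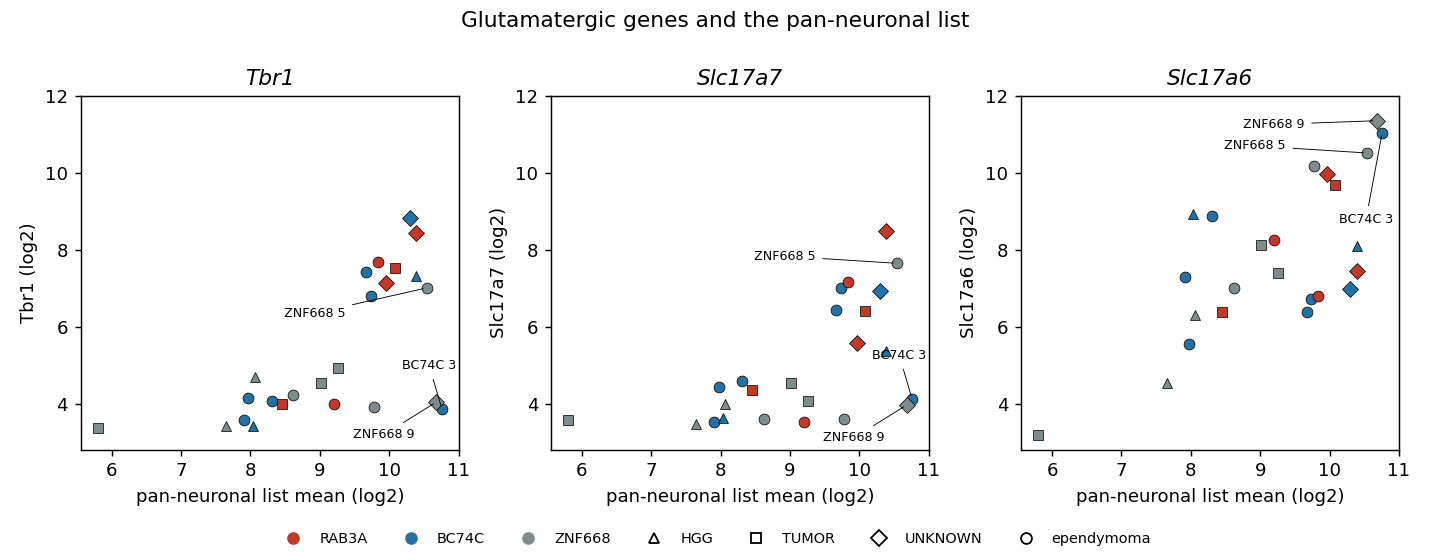
Log2 values of Tbr1, Slc17a7 and Slc17a6 (vertical axes) against the mean log2 value of the pan-neuronal list (horizontal axis), with 1 point per tumour, coloured by class gene and shaped by tumour label. BC74C 3 and ZNF668 9 have the highest list means but Tbr1 at 3.86 and 4.04, and their Slc17a6 values are 11.05 and 11.36.

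Upper and deep layer members were set against each other after each gene's mean over the 24 tumours was subtracted, because levels of different probe sets cannot be compared. The deep mean (Tbr1, Fezf2, Bcl11b) ran between -2.28 in ZNF668 replicate 7 and 2.87 in BC74C replicate 8. The upper mean (Cux2, Rorb) ran between -1.51 in ZNF668 replicate 8 and 1.47 in RAB3A replicate 1. The deep mean thus covered a wider range than the mean of Cux2 and Rorb. This did not hold for Cux2 alone, which ran between -2.55 in ZNF668 replicate 7 and 2.82 in RAB3A replicate 1. The mean of upper minus deep was -0.35 ± 0.75 over the 6 RAB3A, -0.06 ± 1.59 over the 9 BC74C and 0.30 ± 0.87 over the 9 ZNF668 tumours. The group means differed by less than the spread within the groups. By tumour label the mean was 0.20 ± 1.68 over 4 HGG, 0.07 ± 0.86 over 5 TUMOR, -0.64 ± 1.59 over 4 UNKNOWN and 0.12 ± 0.98 over 11 ependymoma tumours, again within the spread.

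The balance of single tumours ran over a wider range than the group means, which averaging alone would give. Upper minus deep was -2.27 in BC74C replicate 8, which had the highest Tbr1, and 2.44 in BC74C replicate 9, where Tbr1 was 3.42 and Bcl11b 5.58. The 9 tumours above the Tbr1 gap lay between -2.27 and -0.37, which follows in part from the choice, since Tbr1 is 1 of the 3 genes subtracted. Because Rorb had only 2 of the 9 tumours among its highest, Cux2 alone was also set against the deep mean. Its mean was 0.28 ± 0.44 over RAB3A, -0.33 ± 1.49 over BC74C and 0.14 ± 1.08 over ZNF668 tumours. The order of the class genes was therefore not the same, and the mean of RAB3A tumours turned its sign. Of the 9 tumours above the Tbr1 gap, 3 were positive on this measure, RAB3A replicates 1, 2 and 5 at 0.10, 0.31 and 0.40. ZNF668 replicate 9 stood out on this measure at 2.82, with Cux2 at 8.64 and no deep layer member above its own mean. Both measures kept Bcl11b in the deep mean, although over all tumours Bcl11b also followed the striatal list (r = 0.87). In BC74C replicate 7, with a deep mean of 2.2, Bcl11b was 10.91 and the striatal list mean 10.39. No balance was taken without Bcl11b, so its part in these values was not tested.

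**Figure D4:**
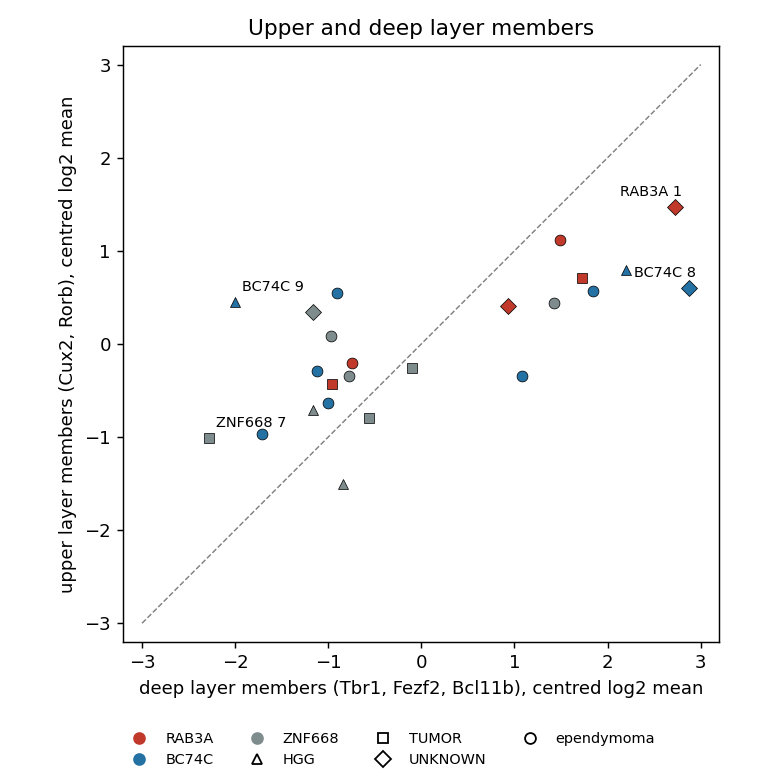
Mean centred log2 value of the upper layer members Cux2 and Rorb (vertical axis) against that of the deep layer members Tbr1, Fezf2 and Bcl11b (horizontal axis), with 1 point per tumour. The dashed line marks equal values; Tbr1 is part of the horizontal axis, so tumours with high Tbr1 lie to the right, and BC74C 9 lies farthest above it at 2.44.

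Bcl11b, the zinc finger factor CTIP2, is used by deep layer neurons, by projection neurons of the striatum and by T cells. Its level followed the striatal list (Ppp1r1b, Rgs9, Drd2, Penk and others, 7 genes tested) across the 24 tumours, with r = 0.87 (permutation p = 1e-05, the smallest that 100000 permutations can give, adjusted over 144 relations 7.58e-05) and rho = 0.77 (permutation p = 4e-05, 0.00036 after adjustment). With the 2 tumours of most extreme Bcl11b left out r was 0.81, within the elw titles 0.85 and within the 6 mmr titles 0.78. In the 15 tumours below the Tbr1 gap r was 0.86 (permutation p = 4e-05, 0.00288 after adjustment) and rho 0.70 (permutation p = 0.00472, 0.0887 after adjustment), so that the rank correlation missed the threshold there. In the 9 tumours above it r was 0.91 (exact permutation p = 0.000521, 0.075 after adjustment). The other 3 probe sets of Bcl11b gave r between 0.85 and 0.86 with the striatal list. The pan-neuronal list gave r = 0.72 with Bcl11b (permutation p = 4e-05, 0.000262 after adjustment) and rho = 0.59 (permutation p = 0.00303, 0.0104 after adjustment), with r at 0.62 without the 2 extreme tumours, 0.69 within elw and 0.80 within mmr. Which of these lists it followed more closely was not tested.

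BC74C replicate 7 had the highest Bcl11b of the 24 tumours at 10.91 and the highest striatal list mean at 10.39. ZNF668 replicate 1 had Bcl11b at 9.50 and the striatal list at 8.44 with Tbr1 at 4.92, below the gap. RAB3A replicate 1, at a striatal mean of 6.68, had Bcl11b at 9.44 together with the highest Neurod6. High Bcl11b thus occurred with and without high Tbr1. The T cell list (5 genes tested) lay between 3.73 and 5.35, close to the limit for low values, and gave r = 0.12 with Bcl11b (permutation p = 0.574, 0.656 after adjustment) and rho = 0.22 (permutation p = 0.296, 0.402 after adjustment). Its r was 0.11 without the 2 extreme tumours, 0.13 within elw and 0.42 within mmr. The named gene most like Bcl11b outside the members was Ppp1r1b (r = 0.93 over 24 tumours), the striatal phosphoprotein DARPP-32, followed by Kcnip2 and Rab40b (each 0.92). Ppp1r1b was 10.51 in BC74C replicate 7.

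**Figure D5:**
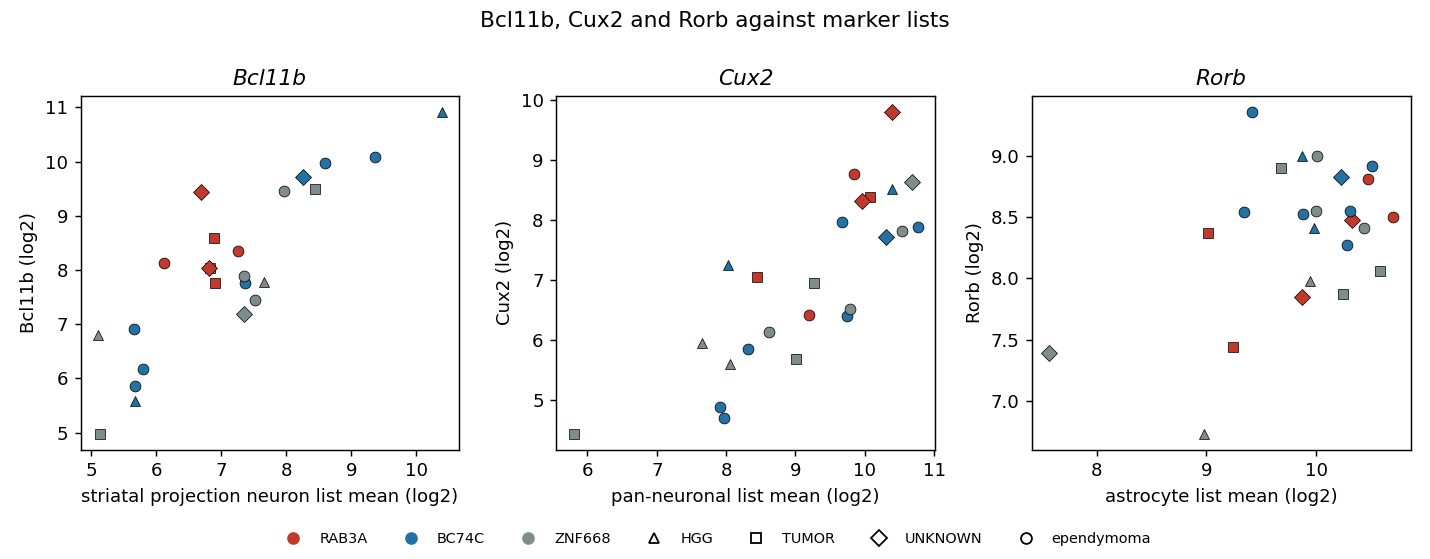
Log2 value (vertical axis) of Bcl11b, Cux2 and Rorb against the mean log2 value of the striatal, pan-neuronal and astrocyte list (horizontal axes), with 1 point per tumour. Bcl11b and Cux2 are higher where their lists are higher (r = 0.87 and 0.82), and the 2 lowest astrocyte means, 7.57 and 8.98, belong to the 2 ZNF668 tumours with the lowest Rorb.

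Cux2, of the upper layers, was higher where the pan-neuronal list was higher. So was Bcl11b, with r = 0.72 for that list, and the 9 highest tumours of Camk2a had list means of at least 9.67. The rise with neurons in general was thus not particular to Cux2. For Cux2 and the pan-neuronal list r was 0.82 (permutation p = 1e-05, 7.58e-05 after adjustment) and rho 0.82 (permutation p = 1e-05, 0.00018 after adjustment). The r was 0.80 with the 2 tumours of most extreme Cux2 left out, 0.81 within elw and 0.91 within mmr. In the 15 tumours below the gap r was 0.80 (permutation p = 0.0005, 0.0144 after adjustment), rho 0.72 (permutation p = 0.00342, 0.0821 after adjustment) and r without the 2 extreme tumours 0.63. In the 9 tumours above it r was 0.37 (exact permutation p = 0.347, 0.962 after adjustment), which did not pass. Cux2 ran opposite to the radial glia list (Pax6, Hes1, Sox2 and others), with r = -0.78 (permutation p = 1e-05, 7.58e-05 after adjustment) and rho = -0.76 (permutation p = 5e-05, 0.000379 after adjustment). That r was -0.76 without the 2 extreme tumours, -0.75 within elw and -0.90 within mmr. With the proliferation list r was -0.73 (permutation p = 7e-05, 0.00042 after adjustment) and rho -0.73 (permutation p = 6e-05, 0.000393 after adjustment), with r at -0.65 without the 2 extreme tumours, -0.80 within elw and -0.58 within mmr. BC74C replicate 3 and ZNF668 replicate 9, which were low for Tbr1 and Slc17a7, had Cux2 at 7.89 and 8.64. BC74C replicate 4, one of the 9 with high Tbr1, had the lowest Cux2 of those 9. The second Cux2 probe set gave r = 0.71 with the pan-neuronal list and -0.75 with radial glia.

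Likeness was ranked by Pearson's r over the 24 tumours, and the genes given are the likest that are no members and carry no clone name. Those most like Cux2 were Pitpnm3 (r = 0.94), Cacnb4 and Cacna1a (each 0.93), of which Cacnb4 and Cacna1a encode subunits of voltage-gated calcium channels. None of the other 8 members was among the 100 genes most like Cux2, and the nearest, Camk2a, ranked 669 of 13217. The same count was 0 for Bcl11b and Rorb, 1 for Camk2a and 5 for each of Neurod6, Neurod2, Slc17a7, Tbr1 and Fezf2. Bcl11b and Cux2 were related to each other with r = 0.61 over the 24 tumours (permutation p = 0.00162, 0.00208 after adjustment over 36 pairs) and rho = 0.54 (permutation p = 0.00712, 0.00949 after adjustment). That r was 0.49 without the 2 tumours of most extreme Bcl11b, 0.68 within elw, 0.54 within mmr, 0.45 in the 15 tumours and -0.27 in the 9. Outside the members, Tbr1 was most like Nrgn, the synaptic protein neurogranin (r = 0.97 over 24 tumours, 0.72 in the 15 and 0.71 in the 9), then Kalrn and Ipcef1 (each 0.95), and Nrgn was also among the 3 likest non-members of Neurod6 (0.89) and Fezf2 (0.93). With the members counted, Neurod2 ranked 1 for Neurod6 and for Slc17a7, Slc17a7 ranked 2 for Neurod2, Tbr1 ranked 1 for Fezf2 and Fezf2 ranked 3 for Tbr1. For Neurod6 the other non-members were Kalrn, an exchange factor of dendritic spines (0.91), and Igfbp6 (0.90), and for Fezf2 they were the synaptic fusion protein Stx1a (0.94) and Tmem132a (0.92). Among non-members, Neurod2 was most like Fhl2 (0.94), Klhl40 (0.93) and Extl1 (0.92), Slc17a7 like Rasl10a (0.93), Rtn4rl2 (0.92) and Hrk (0.92), and Camk2a like Ptk2b, Rasgrp1 and Ipcef1 (each 0.95). Across the Tbr1 gap such values are high for many genes, and within the sets they were often lower. Stx1a with Fezf2 gave 0.16 within the 15 tumours below the gap and 0.92 within the 9 above it. Fhl2 with Neurod2 gave 0.43 and 0.95, Ipcef1 with Camk2a 0.80 and 0.21, and Kalrn with Tbr1 0.77 in each set. Nrgn was 10.71 in RAB3A replicate 1 and 5.83 in ZNF668 replicate 7, the tumours with the highest and the lowest Neurod6.

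Read from the probe set used, Rorb had no relation with a list of neurons that passed. With the pan-neuronal list r was -0.09 (permutation p = 0.671, 0.744 after adjustment) and rho -0.19 (permutation p = 0.371, 0.473 after adjustment), with r at -0.16 without the 2 tumours of most extreme Rorb, 0.09 within elw and -0.46 within mmr. With the astrocyte list (Aqp4, Aldh1l1, Gja1 and others) r was 0.46 (permutation p = 0.0284, 0.0602 after adjustment) and rho 0.24 (permutation p = 0.262, 0.378 after adjustment), within elw 0.10 and within mmr 0.61. Without the 2 extreme tumours it was 0.06, so the relation rests on those tumours. Rorb was lowest at 6.73 in ZNF668 replicate 8 and at 7.39 in ZNF668 replicate 9, which also had the 2 lowest astrocyte means, 8.98 and 7.57. With the endothelial list r was -0.56 (permutation p = 0.00683, 0.0193 after adjustment) and rho -0.51 (permutation p = 0.0121, 0.029 after adjustment). It was -0.29 without the same 2 tumours, -0.40 within elw and -0.57 within mmr, so this relation too was weaker without them.

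The 3 Rorb probe sets did not go together closely. The other two correlated with the one used at r = 0.49 and 0.77, against 0.88 or higher for the other probe sets of Neurod2, Bcl11b and Cux2. With the radial glia list they gave 0.04 and 0.62, and the one used 0.15. With the pan-neuronal list they gave 0.11 and -0.46, and the one used -0.09. The values of the other probe sets were not tested. The genes most like the probe set used were Nebl (r = 0.80), Tst (0.76) and S1pr1 (0.73), the last a receptor for sphingosine-1-phosphate. Of the 5 other Camk2a probe sets, 2 correlated with the one used at 0.97 and 0.89, and the dimmest 3, with means of 4.44, 3.89 and 3.34, at 0.77, 0.25 and 0.58.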

How the data were processed

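The authors deposited a table of log2 expression values, 1 per probe set and tumour, for 45141 probe sets, made from Trizol RNA labelled with biotin per the labels' protocols. Partek 6.6 was used per the submitters' processing notes, and the background correction, the normalization and the summarisation of probes are not given in the sources used here. The values ran from 2.40 to 13.85 with nearly equal quartiles in every array. Values equalised between arrays show a gene relative to the others on its array, and the number of arrays limits the precision. Depth has no meaning for arrays, and signal over background was not assessed since no probe or background values were used here.

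The platform's 104 control probe sets were not used. Among the others, 28898 carry 1 gene symbol in the platform's annotation, 551 several and 15588 none, and 28689 matched a RefSeq gene by Entrez identifier. For each of 17097 genes the probe set of highest mean was taken. Testing was limited to the 13218 genes with a mean of at least 3.76, the 30th percentile over probe sets. Comparisons used limma 3.58.1 in R 4.3.3 (lmFit, and eBayes with trend). Tests were two-sided at 0.05 after Benjamini-Hochberg adjustment over 13218 genes, and limma's fit was tested on simulated data. The class genes came from 1 model of 24 tumours. HGG was compared with ependymoma in 15 tumours, and TUMOR and UNKNOWN with ependymoma in 24, each with the class gene as a covariate. Correlations used 100000 permutations, or every permutation for 9 tumours, with adjustment over 36 member pairs or 144 relations of 9 members with 16 marker lists. Replicate numbers follow the order of deposit. The members, the marker lists and the tests were chosen with earlier results of these data known. The text names the 9 members, in each list the genes with the largest and the smallest moderated t, and for the members the 3 non-members most like them, clone names left out. Genes and tumours named beyond this, such as Slc17a6 and the tumours with high Tbr1, were chosen after their values were seen. Alternatives are given in the closing section. Figures were drawn with matplotlib 3.10.9 in Python 3.11.15.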

Additional observations from a re-analysis of the deposited data

Results flagged for a closer look

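ZNF668 replicate 5 stood far from the other ZNF668 tumours for 3 members. Its Slc17a7 was 7.65 where the next highest ZNF668 tumour had 4.54, its Tbr1 was 7.01 where the next had 4.92, and its Fezf2 was 5.93 where the next had 4.10. Among the 5 tumours labelled TUMOR, RAB3A replicate 4 stood apart for Fezf2 at 7.15, with the next at 3.87. These 4 came from 60 groups examined, and chance flags about 1 group in 20.

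For Cux2, both HGG tumours with BC74C lay above the mean of the BC74C ependymoma tumours, and both HGG tumours with ZNF668 lay below that of the ZNF668 ependymoma tumours. The HGG minus ependymoma effects differed by 2.65 between BC74C and ZNF668, and this difference was not tested.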

How the results depend on the processing

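No member passed in any of the 6 comparisons under any alternative other than array weights. With these, Neurod2 (1.96) and Fezf2 (2.75) passed in UNKNOWN minus ependymoma, 2 of 9 members, among 398 of 13218 genes. The cause of each change below was not tested. RAB3A minus ZNF668 called 21 genes within elw titles, 6 with no filter, 21 with array weights, and 0 with the pan-neuronal mean or the Y-linked mean as a covariate, within ependymoma tumours, and with only the 2 class genes. BC74C minus ZNF668 called 130 genes with array weights and 0 within ependymoma tumours. RAB3A minus BC74C called 2 with the title prefix as a block, 1 with no filter, 2 with the mean of all probe sets, 5 with the pan-neuronal mean and 1 with the Y-linked mean. UNKNOWN minus ependymoma called 398 with array weights. With quantile normalization 1 relation with a list passed over the 9 tumours, against 0 otherwise.

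For members named with a value, directions turned as follows. In RAB3A minus ZNF668, Rorb was -0.04 within elw titles, Bcl11b -0.04 with the pan-neuronal mean, and Camk2a -0.10 and Bcl11b -0.03 within ependymoma tumours. In BC74C minus ZNF668, Cux2 was -0.07 with the Y-linked mean, and within ependymoma tumours Camk2a was -0.06, Tbr1 -0.06, Fezf2 -0.05, Bcl11b -0.47 and Cux2 -0.54. In RAB3A minus BC74C, Bcl11b was -0.10 with the pan-neuronal mean and Camk2a -0.03 within ependymoma tumours. In HGG minus ependymoma, Cux2 was -0.68 with the Y-linked mean. In TUMOR minus ependymoma, Rorb was 0.02 with the mean of all probe sets, and Camk2a was 0.42 with array weights, 0.95 with the pan-neuronal mean, 0.10 with the Y-linked mean and 0.06 with quantile normalization. In UNKNOWN minus ependymoma, Bcl11b was -0.45 with the pan-neuronal mean. Counting all 9 members, 2 were higher in HGG than in ependymoma in the full fit, against 6 with the prefix as a block, 6 within elw titles, 6 with the pan-neuronal mean, 0 with the Y-linked mean and 1 with array weights. In TUMOR minus ependymoma 0 were higher in the full fit, against 7 with the pan-neuronal mean, 3 with array weights and 1 within elw titles (Bcl11b, 0.65).

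Leaving out each tumour in turn called 0 members in every fit. Genes called ran from 0 to 40 for RAB3A minus ZNF668 (over 1.5 times from the full count in 19 of 24 fits), 25 to 63 for BC74C minus ZNF668, 0 to 4 for RAB3A minus BC74C and 0 to 11 for UNKNOWN minus ependymoma. Rorb ran from -0.03 (without ZNF668 replicate 8) to 0.30 in RAB3A minus ZNF668. Bcl11b ran from -0.04 to 0.62 in RAB3A minus BC74C, below 0 without BC74C replicate 6 or 9, and from -0.05 (without BC74C replicate 8) to 0.97 in UNKNOWN minus ependymoma. Cux2 ran from -0.21 (without BC74C replicate 7) to 0.77 in HGG minus ependymoma. Camk2a ran from -0.70 to 0.64 in TUMOR minus ependymoma and was above 0 in 8 of 24 fits. The members' median ran from -0.97 to 0.31 in HGG, -0.66 to 0.20 in TUMOR and 0.68 to 1.81 in UNKNOWN minus ependymoma, and from 0.25 (without RAB3A replicate 1) to 1.28 in RAB3A minus BC74C. No paired analysis was possible because replicate numbers follow the order of deposit and pair no samples. Setting Cux2 alone against the deep layer, the sets around the Tbr1 gap and the other probe sets of Bcl11b, Cux2 and Rorb were chosen after seeing the data.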
